A study of Mus musculus with 21 samples.

Results

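RAW 264.7 cells, a macrophage-like line from a mouse tumour, were exposed for 2 h to amorphous silica particles of 10 nm at 20 µg/ml, and their messenger RNA was set against that of untreated cells. The comparison rests on 6 arrays, 3 of the 20 µg/ml group and 3 of the untreated group, taken by their titles from the 21 arrays of the series. The other groups, 3 arrays each, received 10 nm silica at 5 or 50 µg/ml or 500 nm silica at 250, 500 or 1000 µg/ml. The labels name no genetic change in any group. Exposure took place in serum-free medium, and the labels do not say whether untreated cells were moved to it too, and if they were not, that change and the particles cannot be told apart. Separate cultures for the 3 arrays of a group are not mentioned either, and p-values therefore measure only an array-to-array spread that may be technical. The culture vessel is described differently for growth and for treatment, and is not settled.

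Macrophages take up particles by phagocytosis and by scavenger receptors. Signals from receptors, membranes and lysosomes pass through MAP kinases and NF-kB, which switch on immediate early transcription factors without new protein synthesis. Those factors, with NF-kB, then act on genes of chemokines, cytokines and growth factors, while phosphatases and RNA-binding proteins made in the same wave end the signal. Inhaled silica is known for inflammation of the lung in which macrophages take a central part.

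All values are RMA values put on the log2 scale, so that a difference of 1 is a 2-fold change, and all tests are limma's, two-sided, with p-values adjusted by the Benjamini-Hochberg method over 22626 probe sets. A probe set was called at an adjusted p under 0.05. For each of 12393 genes, the probe set that was brightest on average over the 21 arrays stood for the gene.

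The labelled cell type was checked first. Csf1r, the receptor for macrophage colony-stimulating factor, averaged 13.27 ± 0.135 on the 20 µg/ml arrays and 13.46 ± 0.282 on untreated arrays (SD, n = 3 each). Of 10 measured macrophage markers limma called 0 different, with 2 at an unadjusted p under 0.05, and their summed linear signals were 32238 to 36573 with silica, against 32626 to 37563 in untreated cells. Markers of 7 other cell types (osteoclasts, fibroblasts, epithelia, neutrophils, T and B lymphocytes and dendritic cells) summed to between 120 and 416 on the 20 µg/ml arrays and between 114 and 451 on untreated arrays. The osteoclast sum did not overlap between the groups, at 291 to 321 with silica against 232 to 245 in untreated cells, and its part in the results was not tested. Of these 55 markers 2 were called, the osteoclast gene Ocstamp (0.90 higher on the log2 scale) and the fibroblast gene Pdgfra (0.49 higher, but not called without 20 µg/ml replicate 1 or untreated replicate 2). Without 20 µg/ml replicate 2, 1 T cell and 1 B cell marker were called higher, and without untreated replicate 2, 1 T cell marker lower. RMA values have no 0, so none of these markers was listed as absent. In RNA from whole cultures, fewer cells of a type and less RNA per cell cannot be told apart.

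Replicate 3 ranked last or first in every group: in all 7 groups its values had the lowest SD, and its deviation from the group mean scored highest on a first component with 60.9% of the variance. It was not the farthest array in every group: with 500 nm silica at 500 µg/ml replicate 2 scored −27.7 and replicate 3 19.8. The signal of control transcripts at the 3′ end minus that at the 5′ end, a log2 measure that is higher in degraded RNA, was 0.174, 0.191 and 0.473 on the 20 µg/ml arrays, against 0.168, 0.168 and 1.15 on the untreated arrays (exact permutation test, two-sided, p = 1, where 0.1 is the smallest possible). Arrays correlated at 0.990 to 0.998 within the 20 µg/ml group, at 0.982 to 0.997 within the untreated group and at 0.973 to 0.992 between them, across probe sets, which are not independent replicates. Array medians were 6.207, 6.232 and 6.192 on the 20 µg/ml arrays, against 6.26, 6.282 and 6.235 on the untreated arrays. All treated medians lay below all untreated medians (exact permutation test, two-sided, p = 0.1, the smallest possible). SDs of array values averaged 2.59 with silica and 2.64 without (exact permutation test, two-sided, p = 0.3). The part of the lower medians in the balance of rises and falls was not tested beyond the scalings given below. The part of RNA quality in the results was not tested beyond the counts given without replicate 3.

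At 20 µg/ml, 10 nm silica changed 2089 of 22626 probe sets, or 9.23%, and 1234 of 12393 genes, or 9.96%. Of the genes, 379 were higher and 855 lower than in untreated cells, which is 3.06% and 6.9% of all genes. Falls were more numerous but smaller. At 2-fold or more there were 125 rises and 85 falls, at 4-fold 37 and 2, at 8-fold 11 and 0, and at 16-fold 4 and 0. In 1227 of the 1234 called genes all 3 arrays of one group lay beyond all 3 of the other, as they did in 26.9% of all genes. Deviations of same-numbered arrays correlated at 0.584, 0.481 and 0.737, and with the number as a block 3577 probe sets were called. No source says that the numbers pair samples, and replicate 3 scored highest on the first component in every group. Paired samples and a trait that replicate 3 shares over groups cannot be told apart. The count was 1649 without replicate 3 of all groups and 1367 without 20 µg/ml replicate 1. The share of called probe sets that were higher, 31.5%, depended on the scaling: it was 40.1% after quantile normalization, 41.8% with each array centred on its median and 47.8% with arrays also rescaled to a common SD.

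**Figure D1:**
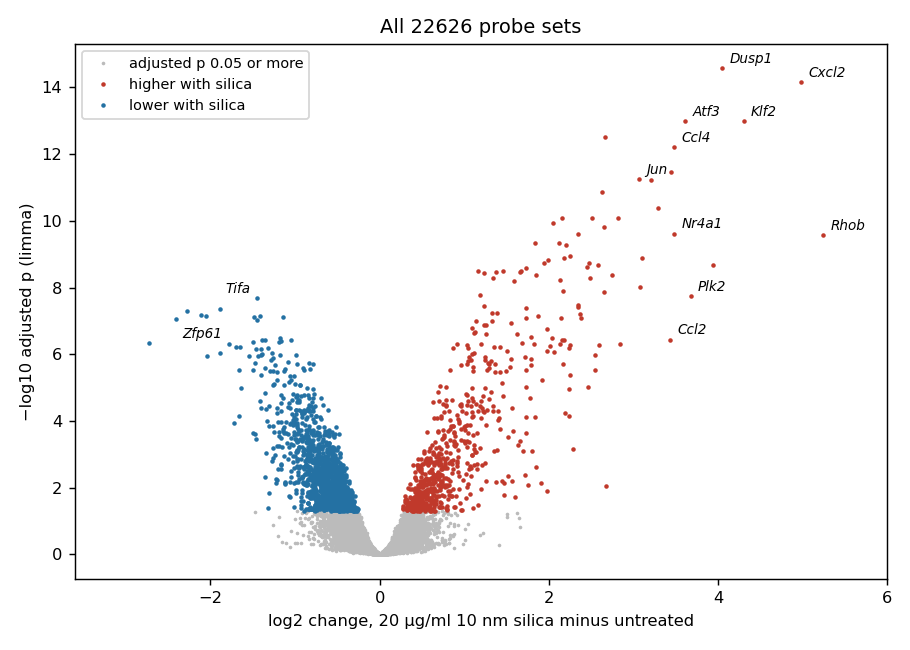
Each point is 1 of the 22626 probe sets, with the log2 change between 10 nm silica at 20 µg/ml and untreated cells on the x axis and −log10 of the limma adjusted p on the y axis. Called rises reach 5.24 for Rhob, whereas most called falls lie between 0 and −2. A gene can have several points, and some of the falls beyond −2 are probe sets that do not represent a gene.

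The largest rises were those of a regulator of the cytoskeleton, chemokines, transcription factors and inhibitors of signalling. Rhob, a small GTPase that acts on actin and on membrane traffic, rose 37.9-fold, Cxcl2, a chemokine that attracts neutrophils, 31.6-fold, Klf2, a zinc finger transcription factor known to restrain inflammatory genes in macrophages, 19.7-fold, and Dusp1, a phosphatase that inactivates MAP kinases, 16.6-fold. Rhob had values of 11.30, 11.12 and 10.53 on the 20 µg/ml arrays, against 5.86, 5.86 and 5.51 on the untreated arrays (log2 change 5.24 ± 0.276 SE, adjusted p = 2.68e-10). Cxcl2 stood at 11.83, 11.93 and 12.05 with silica and at 6.74, 6.89 and 7.22 without (4.98 ± 0.127, adjusted p = 7.07e-15). Klf2 read 10.22, 10.53 and 10.60 in treated and 6.22, 6.28 and 5.94 in untreated cells (4.30 ± 0.132, adjusted p = 1.04e-13). In these 3 genes the lowest treated array lay more than 3 log2 units above the highest untreated array. For Dusp1 the 3 treated arrays, 10.84, 10.90 and 10.86, spread as little as the untreated ones, 6.84, 6.74 and 6.86 (4.05 ± 0.0938, adjusted p = 2.68e-15).

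The other 11 of the 15 largest rises ran from 3.67 for Plk2 down to 2.67 for Rgs1, and in each the treated and untreated arrays did not overlap, which was a condition for naming them. Plk2, a polo-like kinase, read 10.84, 10.60 and 9.96 with silica, against 7.04, 6.61 and 6.72 in untreated cells (adjusted p = 1.8e-08). Rgs1, which speeds the shutdown of G protein signals, read 12.16, 12.18 and 12.07, against 9.53, 9.5 and 9.38 (adjusted p = 3.17e-13). Its replicates lay close together in both groups. Between these stood the transcription factors Atf3 (3.62), Nr4a1 (3.48), Egr2 (3.29) and Jun (3.07), the chemokines Ccl4 (3.48) and Ccl2 (3.43), the lipid droplet protein Hilpda (2.84), the survival gene Ier3 (2.82) and the calcineurin inhibitor Rcan1 (2.74, all log2 changes).

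**Figure D2:**
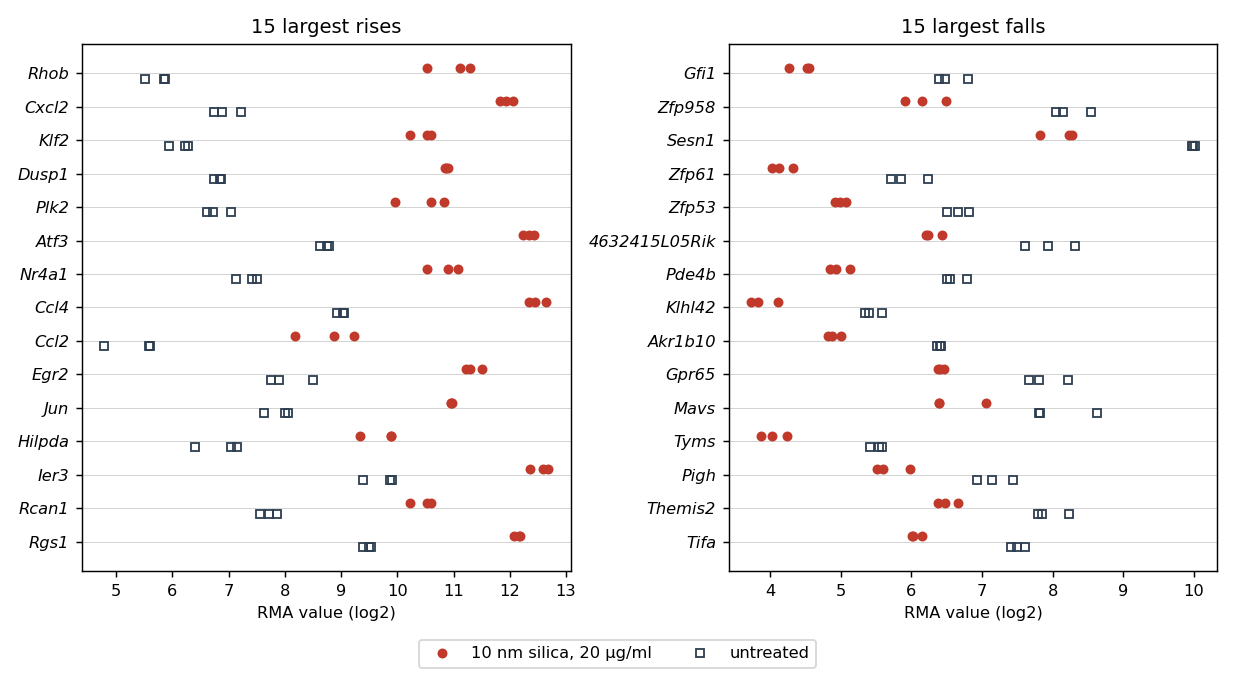
Log2 RMA values of the 15 largest rises (left) and the 15 largest falls (right) on each array, with filled circles for 10 nm silica at 20 µg/ml and open squares for untreated cells. In every gene the 3 circles lie to one side of the 3 squares, which was a condition for naming the gene, and Rhob shows the widest gap.

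Of these rises, 5 are taken here that did not move alike over doses: at 5 µg/ml Cxcl2 was called higher than in untreated cells and Nr4a1 was not. The sequences just before their start sites are shown because they differ in the motifs that they hold. They are RefSeq windows of the GRCm38.p6 build, 250 bases before the annotated start, 5′ to 3′ on the gene's strand: Dusp1 at chr17:26508473-26508722 (minus strand), Nr4a1 at chr15:101266596-101266845 (plus), Cxcl2 at chr5:90903649-90903898 (plus), Klf2 at chr8:72318812-72319061 (plus) and Rhob at chr12:8500010-8500259 (minus). Capitals mark a cAMP response element (TGACGTCA) in Dusp1, a variant of it (TGACGCA, or TGCGTCA on the opposite strand) in Nr4a1 and an NF-kB motif in Cxcl2, of which the fourth and the fifth letters were free to be any base in the search.
Dusp1: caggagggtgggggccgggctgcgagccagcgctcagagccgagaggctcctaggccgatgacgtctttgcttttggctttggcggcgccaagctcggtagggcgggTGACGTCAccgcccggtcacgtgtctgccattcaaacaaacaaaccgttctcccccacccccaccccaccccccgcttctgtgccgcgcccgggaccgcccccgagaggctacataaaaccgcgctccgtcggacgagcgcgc
Nr4a1: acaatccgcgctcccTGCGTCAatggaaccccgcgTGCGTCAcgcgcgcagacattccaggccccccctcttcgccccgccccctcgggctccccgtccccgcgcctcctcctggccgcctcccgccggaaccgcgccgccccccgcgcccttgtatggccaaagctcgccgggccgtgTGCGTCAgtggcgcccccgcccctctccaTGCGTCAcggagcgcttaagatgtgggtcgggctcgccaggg
Cxcl2: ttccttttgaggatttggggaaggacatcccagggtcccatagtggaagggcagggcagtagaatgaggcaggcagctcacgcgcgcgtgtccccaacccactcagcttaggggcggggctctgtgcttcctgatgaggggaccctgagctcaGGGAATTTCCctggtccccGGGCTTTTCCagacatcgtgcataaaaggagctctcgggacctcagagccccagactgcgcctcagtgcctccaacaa
Klf2: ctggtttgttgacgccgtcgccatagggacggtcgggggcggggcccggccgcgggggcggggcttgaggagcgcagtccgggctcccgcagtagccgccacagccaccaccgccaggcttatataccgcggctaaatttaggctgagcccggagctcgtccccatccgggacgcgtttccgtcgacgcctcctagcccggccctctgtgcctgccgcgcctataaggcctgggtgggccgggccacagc
Rhob: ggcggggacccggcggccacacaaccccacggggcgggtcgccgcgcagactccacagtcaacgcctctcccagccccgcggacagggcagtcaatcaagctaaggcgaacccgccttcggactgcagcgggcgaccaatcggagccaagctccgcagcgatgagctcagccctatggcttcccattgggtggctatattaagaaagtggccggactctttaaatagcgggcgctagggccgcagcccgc

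Such windows were found for 12 of the 15 largest rises and 13 of the 15 largest falls, some of them with several start sites, which gave 18 and 21 windows. A gene was counted when any of its windows held the motif, whereas the shares over all windows count each window. On both strands the cAMP response element was found in 3 of the 12 rises (Dusp1, Plk2 and Rcan1), or 3 of their 18 windows, and in 0 of the 13 falls. It lies in 1.55% of all 32851 windows. Its variant was found in Hilpda and Nr4a1, with 4 copies in Nr4a1, and in the falling gene Zfp53, against 1.75% of all windows. The NF-kB motif was found in Cxcl2 alone, with 2 copies, against 1.41% of all windows. The AP-1 site TGAGTCA was found in Rcan1 and in the falling gene Pigh (4.46% of all windows). The CArG box was found in Egr2, in 4 windows of that gene, and in the falling gene Tyms (1.47% of all windows). The windows of Klf2 and Rhob held none of the 5 motifs, and no motif contains another. A match is a stretch of letters and not a shown binding site.

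Grouped by function, 20 of 26 measured immediate early transcription factor genes rose and 0 fell (median log2 change 1.81, against 0.03 over all genes), and in each run that left out 1 of the 6 arrays 19 rose. For this and every list below set against untreated cells, the shares over all genes were 3.06% higher and 6.9% lower. Atf3, a stress-induced bZIP factor, rose 12.2-fold, with 12.34, 12.44 and 12.24 on the treated arrays and 8.62, 8.75 and 8.79 on the untreated arrays. Nr4a1, an orphan nuclear receptor, rose 11.2-fold (10.89, 11.08 and 10.53, against 7.51, 7.42 and 7.13) and Egr2, a zinc finger factor, 9.76-fold (11.22, 11.29 and 11.50, against 7.89, 7.76 and 8.5). In all 3 genes every treated array lay above every untreated array. Jun, a component of the AP-1 factor, rose 8.38-fold. The AP-1 family moved widely: Fosl1 rose by 2.34, Fos by 2.18, Junb by 1.78, Fosb by 1.58, Jund by 1.09 and Fosl2 by 0.70 on the log2 scale. Klf6 (2.46), the small Maf factor Maff (2.45), Nr4a2 (2.18), Egr1 (1.98), Ier2 (1.84), Ier5 (1.67), the Egr corepressor Nab2 (1.2) and Egr3 (0.53) also rose. The 6 members not called were Myc (0.30), Nr4a3 (0.25), Klf10 (0.15), Egr4 (0.08), Srf (0.05) and Klf4, which read 7.35, 7.44 and 7.46 with silica and 7.10, 7.66 and 7.51 without.

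**Figure D3:**
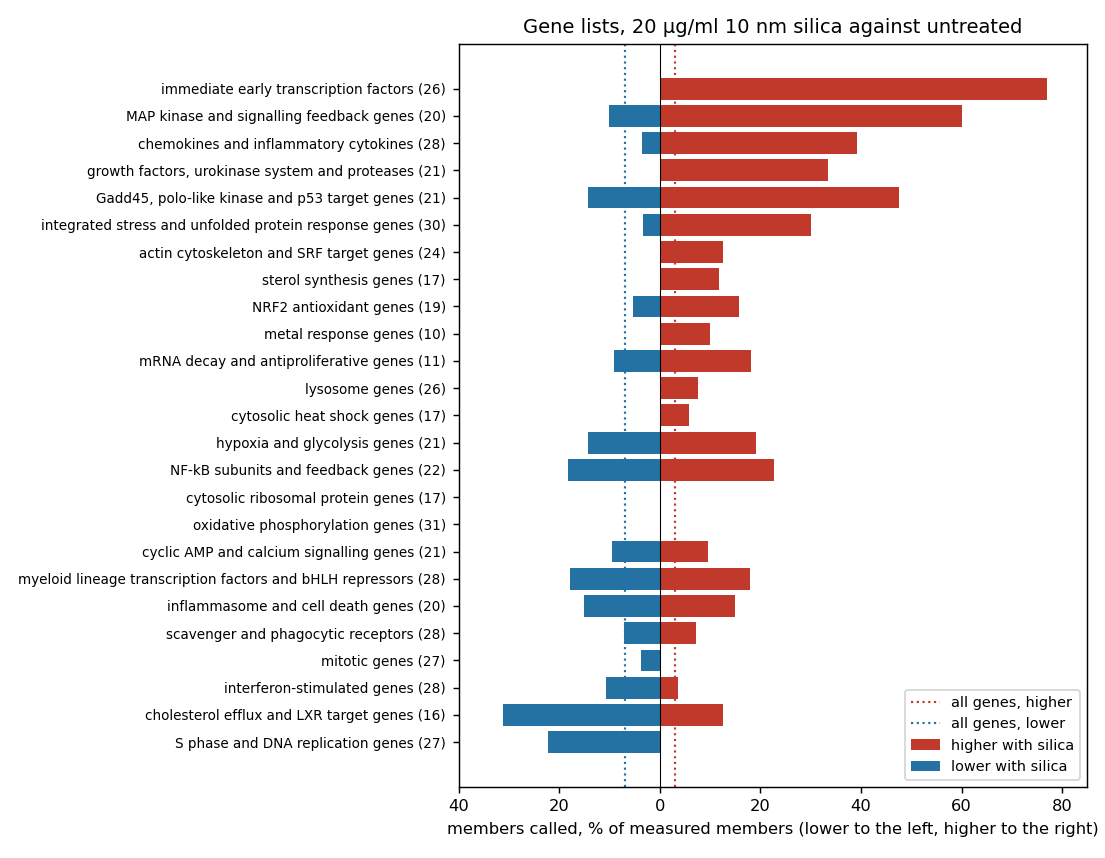
Share of measured members called higher (red, to the right) or lower (blue, to the left) at 20 µg/ml against untreated cells, in percent, for 25 gene lists with their measured size in brackets. Dotted lines mark the shares over all genes, 3.06% higher and 6.9% lower. The bars of immediate early factors, signalling feedback genes and the Gadd45 list pass the red line by the most.

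Of 20 measured MAP kinase and signalling feedback genes, 12 were higher and 2 lower (median 0.84). Dusp2 read 10.02, 10.28 and 10.51 on treated and 7.99, 7.89 and 8.5 on untreated arrays, a 4.42-fold rise (adjusted p = 8.14e-08), and Dusp16 9.37, 9.52 and 9.43 against 7.69, 7.71 and 7.95, a 3.15-fold rise (adjusted p = 3.42e-09). Both encode phosphatases of MAP kinases, and in both the arrays of the groups did not overlap. The kinase-like adaptor Trib1 (1.5), the kinases Pim1 (1.36) and Pim3 (1.10), the G protein regulators Rgs2 (1.33) and Rgs16 (1.22), Dusp8 (0.96), the EGF receptor inhibitor Errfi1 (0.72) and Spry1 (0.40) completed the rises with Dusp1 and Rgs1. The phosphatase of ERK, Dusp6, fell by 0.61 and Socs3, an inhibitor of cytokine receptors, by 0.80. The 2 falls became 0 without 20 µg/ml replicate 3 or without untreated replicate 3, and 1 without 20 µg/ml replicate 1 or 2 or untreated replicate 2.

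Among 28 measured chemokines and inflammatory cytokines, 11 were higher and 1 lower (median 0.28), and these counts were the same without each of the 6 arrays. Ccl4 read 12.64, 12.45 and 12.35 with silica, against 8.92, 9.03 and 9.05 in untreated cells (11.1-fold, adjusted p = 6.11e-13). Ccl2, which attracts monocytes, read 9.22, 8.87 and 8.17, against 5.59, 5.60 and 4.79 (10.8-fold, adjusted p = 3.61e-07). Il1rn, an antagonist of the interleukin 1 receptor, read 8.85, 8.91 and 7.91, against 6.49, 6.38 and 6.23 (4.56-fold, adjusted p = 5.91e-05). In Ccl2 and Il1rn replicate 3 was the lowest treated array, and it still lay above every untreated array. Ccl3 (4.5-fold), tumour necrosis factor Tnf (3.84-fold), the prostaglandin synthase Ptgs2 (3.66-fold), Lif (2.83-fold), Tnfsf9 (2.63-fold), Csf1 (1.92-fold) and Ccl7 (1.73-fold) rose, and Il18 fell by 0.40 on the log2 scale. Other well-known members were not called. Il1b, for which the treated arrays read 5.25, 5.18 and 5.40 and the untreated 5.10, 5.00 and 5.46, was one of them, as were Il6 (log2 difference −0.01), Il1a (0.10), Cxcl1 (0.23), Cxcl10 (0.20), Csf2 (0.31) and Il12b (0.29).

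Subunits and feedback genes of NF-kB moved both ways, with 5 higher and 4 lower of 22 measured (median −0.12). Traf1, an adaptor of the TNF receptor family, rose by 0.93 (7.38, 7.51 and 6.92, against 6.33, 6.38 and 6.31; adjusted p = 0.00119), and Otud7b (0.61), Rel (0.58), Rela (0.32) and the IkB-like factor Nfkbiz (0.84) were the other members called higher. Nfkbie, an inhibitor of NF-kB, fell by 0.78 and the ubiquitin ligase Birc2 by 0.68, with Birc3 (−0.55) and Tnip1 (−0.54). The classical feedback inhibitors Nfkbia (−0.49) and Tnfaip3 (−0.27) were not called. The count of 5 rises was 2 without untreated replicate 1 and 3 without each of the other 5 arrays. Nfkbiz was not called without 20 µg/ml replicate 3 (adjusted p = 0.0755) or untreated replicates 1 (0.0676) and 2 (0.0627), nor Nfkbie without 20 µg/ml replicate 2 (0.0507).

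Growth factor and urokinase genes were higher in 7 of 21 measured members and lower in 0 (median 0.15). Hbegf, a ligand of the EGF receptor, read 7.76, 8.04 and 7.95 with silica, against 5.13, 5.30 and 5.37 in untreated cells, a 6.26-fold rise (adjusted p = 1.36e-08). Plau, the urokinase that activates plasminogen, rose 3.59-fold and its receptor Plaur 4.71-fold (9.73, 9.53 and 8.51, against 7.16, 7.09 and 6.82). The platelet-derived growth factor gene Pdgfb rose 3.23-fold (9.23, 9.37 and 8.86, against 7.89, 7.79 and 6.70). In both Plaur and Pdgfb replicate 3 was the lowest array of each group. Vegfa (0.71), the protease inhibitor Timp1 (0.57) and the macrophage elastase Mmp12 (0.40) were the other rises. Ereg (−0.05), Mmp9 (0.01) and Tgfb1 (0.09) were not called.

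Of 21 measured Gadd45, polo-like kinase and p53 target genes, 10 were higher and 3 lower (median 0.28). Gadd45b, a stress sensor, read 9.16, 9.27 and 9.28 on treated and 6.49, 6.93 and 6.77 on untreated arrays (5.69-fold, adjusted p = 7.97e-11). Plk3 read 8.81, 8.73 and 8.25, against 6.53, 6.47 and 6.02 (4.76-fold, adjusted p = 5.14e-07). Known targets of p53 were found among both the rises and the falls. The sestrin Sesn2 (1.52), the BH3-only genes Bbc3 (1.25) and Pmaip1 (1.15), the cell cycle inhibitor Cdkn1a (1.24), the p53 ligase Mdm2 (1.14), Ddit4 (0.85) and Gadd45g (0.71) rose, while Sesn1, another sestrin, fell 3.71-fold and Ccng1 (−0.68) and Zmat3 (−0.63) fell too. Sesn1 read 8.24, 8.27 and 7.82 with silica, against 9.99, 9.98 and 10.02 without (adjusted p = 4.52e-08), and its 2 other probe sets fell by 1.89 and 2.04. Gadd45a (0.12), Fas (−0.04) and Perp (0.19) were not called.

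Of 30 measured genes of the integrated stress and unfolded protein responses, 9 were higher and 1 lower (median 0.17). Ppp1r15a, which directs the dephosphorylation of eIF2α, rose 4.46-fold (9.67, 10.04 and 9.54, against 7.88, 7.63 and 7.26). The chaperone Dnajb9 rose 2.56-fold (8.97, 9.0 and 9.14, against 7.48, 7.58 and 8.0) and the glutathione-degrading enzyme Chac1 2.13-fold. The stress-induced genes Sesn2 (1.52), Nupr1 (1.03), Trib3 (0.88), Ddit3 (0.73), Herpud1 (0.51) and Cebpb (0.47) rose too, and the eIF2α kinase Eif2ak3 fell by 0.64. The endoplasmic reticulum chaperone Hspa5, at 13.22, 13.23 and 13.25 with silica and 13.00, 12.99 and 13.25 without, was not called, nor were Xbp1 (−0.26), Hyou1 (0.03) and Atf4 (0.56, adjusted p = 0.0891).

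Of 19 measured NRF2 antioxidant genes 3 were higher and 1 lower (median 0.05). Hmox1, which degrades haem, rose 2.59-fold (10.67, 10.58 and 9.98, against 9.21, 9.29 and 8.61; adjusted p = 0.0066) and the sulfiredoxin gene Srxn1 1.96-fold (9.33, 9.52 and 9.17, against 8.30, 8.44 and 8.38; adjusted p = 5.02e-05). Keap1, the inhibitor of NRF2, fell by 0.56, and Nfe2l2, which encodes NRF2, was 0.29 higher but lost its call without 20 µg/ml replicate 2 (adjusted p = 0.0812), 20 µg/ml replicate 3 (0.0747) or untreated replicate 1 (0.0805). The other members, among them Gclm (0.02), Nqo1 (0.00) and Txnrd1 (0.29), were not called. With arrays centred and rescaled 5 NRF2 genes were higher. Of 10 metal response genes only the zinc exporter Slc30a1 was called (0.90 higher), while Mt1 (0.08) and Mt2 (0.48, adjusted p = 0.0502) were not. Without 20 µg/ml replicate 3 or untreated replicate 2, 2 of the 10 were called. Of 17 cytosolic heat shock genes only Dnajb1, a co-chaperone, was called (0.65 higher), and Hspa1b read 8.61, 8.37 and 8.63 with silica and 8.22, 7.98 and 9.06 without.

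In sterol synthesis 2 of 17 measured genes were higher and 0 lower (median 0.12): Hsd17b7 (0.85) and Msmo1 (0.54). Hmgcs1 (0.40), Sqle (0.12) and Mvd (−0.10) were not called, and without untreated replicate 3 the count was 4. Of 16 cholesterol efflux and LXR target genes 2 were higher and 5 lower. Abca1, the exporter of cholesterol to lipoproteins, fell 2.25-fold (7.02, 7.02 and 7.28, against 8.0, 7.86 and 8.97, with 2 other probe sets 0.42 lower and not called), the desaturase Scd2 1.73-fold (11.24, 11.27 and 11.21, against 12.03, 11.99 and 12.05), the lipoprotein lipase Lpl 1.69-fold, Scd1 by 0.49 and Mylip by 0.40 on the log2 scale. The lipid droplet coat protein Plin2 rose 1.78-fold, and Fasn by 0.36. In Scd2 the arrays of a group lay close together, whereas untreated replicate 3 stood highest for Abca1. With arrays centred and rescaled 3 of these genes fell. The 5 falls became 2 without 20 µg/ml replicate 2 or untreated replicate 3 and 3 without 20 µg/ml replicate 1, 20 µg/ml replicate 3 or untreated replicate 1, and the 2 rises 1 without 20 µg/ml replicate 1 or untreated replicate 3. Lpl was not called without 20 µg/ml replicates 1 (adjusted p = 0.055) and 2 (0.0688) or untreated replicate 3 (0.0982).

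Of 21 hypoxia and glycolysis genes 4 were higher and 3 lower (median 0.05). Hilpda rose 7.17-fold (9.89, 9.89 and 9.34, against 7.04, 7.15 and 6.41) and Ndrg1, a stress-responsive gene, 6.18-fold (10.75, 10.87 and 10.80, against 8.16, 8.09 and 8.29), with Vegfa (0.71) and the glucose transporter Slc2a1 (0.58). All 4 other probe sets of Ndrg1 rose too, by 2.23 to 3.08. The glycolytic enzymes Ldha (0.05), Pgk1 (0.04), Aldoa (0.17) and Pkm (0.04) were not called. Pdk1 (−0.61), Mxi1 (−0.55) and Pfkfb3 (−0.65) were called lower, but the other probe set of Pfkfb3 (−0.11) was not called, and Pfkfb3 itself not without 20 µg/ml replicates 1 (adjusted p = 0.0754) and 3 (0.0605) or untreated replicate 3 (0.0897).

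Of 24 measured actin and SRF target genes, 3 were higher: Rhob, Arc (1.73) and the GTPase Rhoc (1.26). Arc, an immediate early gene best known from neurons, read 7.43, 7.69 and 7.75 with silica, against 5.77, 5.74 and 6.18 in untreated cells (adjusted p = 7.94e-08). Rhoc read 10.12, 10.08 and 10.06, against 8.83, 8.87 and 8.79 (adjusted p = 2.54e-07). The structural genes Actb (0.12), Vcl (−0.28), Tagln (0.16) and Acta2 (0.21) were not called.

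Of 28 measured scavenger and phagocytic receptors 2 were higher and 2 lower, where 3.06% of all genes were higher and 6.9% lower. The share of falls was near that over all genes. Olr1, a scavenger receptor for oxidised lipoprotein, rose 4.04-fold (5.90, 6.04 and 6.16, against 3.69, 3.79 and 4.58), and the lectin Clec4e 1.59-fold. The Toll-like receptor Tlr4 fell 2.01-fold (6.96, 6.98 and 6.98, against 7.73, 7.82 and 8.40; adjusted p = 0.000212) and Tlr2 1.44-fold. Msr1 (0.20), Marco (−0.14) and Cd36 (−0.49), known receptors for particles, were not called.

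Among 20 measured inflammasome and cell death genes 3 were higher and 3 lower, and the 3 falls became 5 without untreated replicate 2. Bcl2l11, a promoter of apoptosis, read 10.30, 10.49 and 10.56, against 8.39, 8.5 and 9.27 (3.32-fold), and Cflar, an inhibitor of caspase 8, 9.48, 9.48 and 8.96, against 7.55, 8.05 and 7.14 (3.31-fold), with Bcl2l1 (0.35) the third rise. Both genes promoting and genes opposing apoptosis were thus among the rises. Txnip, a thioredoxin inhibitor, fell 1.99-fold (9.58, 9.36 and 8.90, against 10.36, 10.29 and 10.18), Bid 1.57-fold and Casp1 by 0.47. Nlrp3 (0.39) and Pycard (−0.07) were not called.

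Of 26 lysosome genes, the protease gene Ctsl (0.77) and the galactosidase gene Gla (0.60) were called higher and 0 lower. The rises numbered 4 after quantile normalization, 6 with arrays centred and rescaled, 5 with the replicate number as a block and 0 with only the 6 arrays. The count was 1 without 20 µg/ml replicate 1 or 2 or untreated replicate 2 or 3, Gla being lost each time (adjusted p = 0.147, 0.126, 0.0602 and 0.143). Interferon-stimulated genes held 1 rise, Usp18 (0.51), and 3 falls of 28: Ifit2 fell 2.31-fold (5.35, 5.55 and 5.31, against 6.48, 6.6 and 6.76), Gbp3 1.48-fold and Cmpk2 1.44-fold. Their share of rises was near the 3.06% over all genes. There was 1 fall without 20 µg/ml replicate 1 or untreated replicate 3 and 5 without untreated replicate 1. Gbp3 lost its call without 20 µg/ml replicates 1 (adjusted p = 0.0632) and 3 (0.0641) and untreated replicate 3 (0.0911), and Cmpk2 without 20 µg/ml replicates 1 (0.138) and 2 (0.0651) and untreated replicate 3 (0.117).

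Of 27 genes of S phase and DNA replication 6 were lower and 0 higher (median −0.22): Tyms (2.77-fold), the uracil glycosylase Ung (1.48-fold), the cyclins Ccne2 (1.46-fold) and Ccne1 (1.39-fold), Cdc6 (1.42-fold) and Rfc4 (by 0.35 on the log2 scale). For Tyms, thymidylate synthase, the values were 3.87, 4.24 and 4.03 with silica and 5.59, 5.54 and 5.42 without, but its 2 other probe sets differed by 0.07 and 0.17. The helicase subunits Mcm2 (−0.18) to Mcm7 (−0.24) were not called. There were 3 falls after quantile normalization, 3 with arrays centred, 2 with arrays centred and rescaled and 2 with only the 6 arrays. Ccne2 lost its call under all 3 scalings (adjusted p = 0.0916, 0.0647 and 0.0865), and Cdc6 with arrays rescaled (0.108). There were 3 falls without 20 µg/ml replicate 1 or 2, and Ccne2 was not called without 20 µg/ml replicates 1 (adjusted p = 0.0831), 2 (0.119) and 3 (0.0737) or untreated replicate 3 (0.202). Bub1b (−0.28), of the spindle checkpoint, was the 1 gene called lower among 27 mitotic genes, a smaller share than the 6.9% over all genes. It lost its call without each of the 6 arrays in turn (adjusted p 0.0636 to 0.17). The count of mitotic falls was then 0 without any 20 µg/ml array or untreated replicate 3 and 2 without untreated replicate 1 or 2.

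Of 28 transcription factors of the myeloid lineage and bHLH repressors 5 were higher and 5 lower (median 0.02). Bhlhe40, a repressor, rose 3.94-fold (10.10, 9.99 and 9.56, against 8.04, 8.11 and 7.56), the cofactors Sertad1 and Sertad2 3.59-fold and 2.07-fold, Runx1 2.05-fold and Cebpb 1.39-fold. Gfi1, a repressor that shapes the choice between neutrophil and macrophage fates, fell 4.32-fold and is described with the falls. Hhex (−0.80), Id3 (−0.75), Cebpd (−0.73) and Mitf (−0.72) fell. The lineage factors Spi1 (0.09), Irf8 (−0.05) and Maf (0.20) were not called.

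Of 21 cyclic AMP and calcium signalling genes 2 were higher and 2 lower. Rcan1 rose 6.69-fold (10.60, 10.53 and 10.23, against 7.86, 7.72 and 7.56) and Crem, a cAMP-responsive factor, 2.91-fold (7.39, 7.55 and 7.40, against 6.04, 6.05 and 5.63), while 1 other probe set of Crem was 0.49 lower and not called. The phosphodiesterases Pde4b and Pde7a, which break down cyclic AMP, fell 3.14-fold and 2.02-fold. The 2 falls became 1 without 20 µg/ml replicate 1 or 3 or untreated replicate 2, and Pde7a lost its call without 20 µg/ml replicates 1 (adjusted p = 0.124) and 3 (0.154) or untreated replicates 1 (0.125) and 2 (0.11).

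Of 11 mRNA decay genes 2 were higher and 1 lower (median 0.24). Zfp36, which destabilises cytokine messages, rose 4.48-fold (10.06, 10.04 and 9.64, against 7.99, 7.78 and 7.48), Btg2 3.37-fold, and Cnot6, of a deadenylase complex, was 1.31-fold lower. The 2 rises became 1 without 20 µg/ml replicate 1. Btg2 was not called without 20 µg/ml replicate 1 (0.0576) or untreated replicate 3 (0.0577), and Cnot6 not without 20 µg/ml replicates 1 (0.103), 2 (0.103) and 3 (0.055) or untreated replicate 3 (0.17). Of 31 oxidative phosphorylation genes and 17 ribosomal protein genes, limma called 0, with 2 and 1 at an unadjusted p under 0.05. The smallest p in each list was that of Ndufs1, of complex I (−0.25, adjusted p = 0.0751), and of Rpl14 (−0.32, adjusted p = 0.18). With array weights 3 oxidative phosphorylation genes and 1 ribosomal protein gene were called lower, and with the replicate number as a block 2 and 1.

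Among probe sets that stand for a gene, the largest fall was 4.32-fold, that of Gfi1. Gfi1 read 4.52, 4.55 and 4.27 on the 20 µg/ml arrays, against 6.39, 6.47 and 6.80 on the untreated arrays (log2 change −2.11 ± 0.165 SE, adjusted p = 6.56e-08). Zfp958, a zinc finger gene, read 6.16, 6.49 and 5.92, against 8.05, 8.15 and 8.54 (−2.06 ± 0.162, adjusted p = 7.03e-08). Pde4b read 5.13, 4.84 and 4.93, against 6.55, 6.79 and 6.51 (−1.65 ± 0.153, adjusted p = 5.88e-07), and its other probe set fell by 2.73. No treated array of these genes reached an untreated one, which was a condition for naming them. The zinc finger genes Zfp61 (−1.78) and Zfp53 (−1.66), the unnamed locus 4632415L05Rik (−1.66), the kelch gene Klhl42 (−1.55), the aldo-keto reductase gene Akr1b10 (−1.5, with another probe set not called), the proton-sensing receptor Gpr65 (−1.49), Pigh (−1.46), of glycolipid anchor synthesis, and the signalling protein Themis2 (−1.45) followed. Adaptors of innate immunity were among them: Mavs, which relays RNA sensing at mitochondria, read 6.39, 6.39 and 7.06, against 7.82, 7.81 and 8.62 (2.77-fold lower, adjusted p = 0.000253), and Tifa, an adaptor of TRAF proteins, 6.15, 6.01 and 6.02, against 7.50, 7.41 and 7.61 (2.73-fold lower, adjusted p = 2.11e-08).

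Zinc finger genes recurred among the falls, a grouping chosen after their values were seen and so given without a test. Of 157 genes whose symbol is Zfp and a number, 36 were lower, or 22.9%, against 6.9% of all genes, and 5 were higher, the mRNA decay factor Zfp36 among them (median −0.18, against 0.03). After Zfp958, Zfp61 and Zfp53 came Zfp472 (−1.17), Zfp810 (−1.14) and Zfp362 (−1.03). Falls were also unevenly spread over the range of signal. With genes ordered by level in untreated cells and cut into 4 bands of equal size, 5 fell in the dimmest band, 135 in the next, 463 in the third and 252 in the brightest, while 37, 85, 170 and 87 rose. The untreated values that set the bands also enter each change, so bands and changes are not independent. From the dimmest to the brightest band the median log2 change was 0.107, 0.121, −0.112 and −0.069. Dim genes may also have little room to fall, and the part of signal level in these counts was not tested. Of 537 called genes with several probe sets, 209 had another that was called the same way and 5 one called the opposite way (Cbll1, Mtss1, Ptpn11, Srek1 and Twsg1). Of the 97 genes named by rule, Akr1b10, Tyms, Keap1, Abca1, Scd2, Pfkfb3, Rhoc, Tlr4, Txnip, Bid and Cmpk2 have several probe sets but rest on the representing one alone, no other being called. The further list members named above are not covered by this statement.

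Against the next lower dose, 20 µg/ml differed from 5 µg/ml in 888 probe sets, or 3.92%, and in 543 genes, or 4.38%, of which 170 were higher and 373 (3.01% of all genes) lower. Of these probe sets 34.0% were higher, and 44.1% with arrays centred and rescaled. Among changes of 2-fold or more the balance was the opposite, with 60 genes higher and 20 lower, and 73.0% of 141 probe sets higher. The count of probe sets was 476 without 20 µg/ml replicate 1 and 506 without 5 µg/ml replicate 2. The largest differences were those of Rhob, Klf2, Nr4a1 and Egr2. Rhob read 11.30, 11.12 and 10.53 at 20 µg/ml, against 7.05, 7.09 and 6.48 at 5 µg/ml (log2 difference 4.11, adjusted p = 2.25e-08), and Klf2 10.22, 10.53 and 10.60, against 7.04, 6.82 and 6.68 (3.60, adjusted p = 4.81e-12). Nr4a1 read 10.89, 11.08 and 10.53, against 7.55, 7.59 and 7.73 (3.21), and Egr2 11.22, 11.29 and 11.50, against 8.17, 8.35 and 8.23 (3.09). The 4 largest in the other direction were Gfi1 (−1.71), Zfp958 (−1.53), 4632415L05Rik (−1.35) and Zfp61 (−1.34). Among the lists, 17 of 26 immediate early factors and 11 of 28 chemokines and cytokines were higher at 20 than at 5 µg/ml, where 1.37% of all genes were.

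The course over doses was not the same for all genes. In untreated cells and at 5, 20 and 50 µg/ml of 10 nm silica, Nr4a1 averaged 7.35 ± 0.199, 7.62 ± 0.0949, 10.83 ± 0.282 and 10.96 ± 0.414 (SD, n = 3 arrays each, as for the genes that follow). Rcan1 averaged 7.71 ± 0.149, 7.76 ± 0.301, 10.45 ± 0.198 and 10.69 ± 0.287. At 5 µg/ml these 2 genes differed from untreated cells by 0.27 for Nr4a1 (adjusted p = 0.906) and 0.05 for Rcan1 (adjusted p = 0.992), so that their difference from untreated cells was detected at 20 µg/ml and not at 5 µg/ml.

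Atf3 averaged 8.72 ± 0.0875, 10.78 ± 0.09, 12.34 ± 0.0957 and 12.27 ± 0.149 over the same series, and Ccl4 9.0 ± 0.0697, 10.93 ± 0.167, 12.48 ± 0.15 and 12.42 ± 0.174. Both were called higher at 5 µg/ml than in untreated cells (adjusted p = 6.27e-09 for Atf3 and 2.45e-08 for Ccl4), where 0.686% of all genes were called. Plau averaged 7.76 ± 0.252, 9.34 ± 0.0694, 9.60 ± 0.0754 and 8.88 ± 0.0846, and its log2 difference between 20 and 5 µg/ml was 0.26 (adjusted p = 0.31). Among falls, Sesn1 averaged 10.00 ± 0.0204, 9.27 ± 0.229, 8.11 ± 0.254 and 8.03 ± 0.248. Klf4, a zinc finger factor, read 5.98, 6.54 and 6.05 at 5 µg/ml, below its untreated arrays (log2 difference −1.23, adjusted p = 0.000572), so that its difference of 1.23 between 20 and 5 µg/ml (adjusted p = 0.00018) has no counterpart against untreated cells. These comparisons share arrays, and their values are given side by side only.

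**Figure D4:**
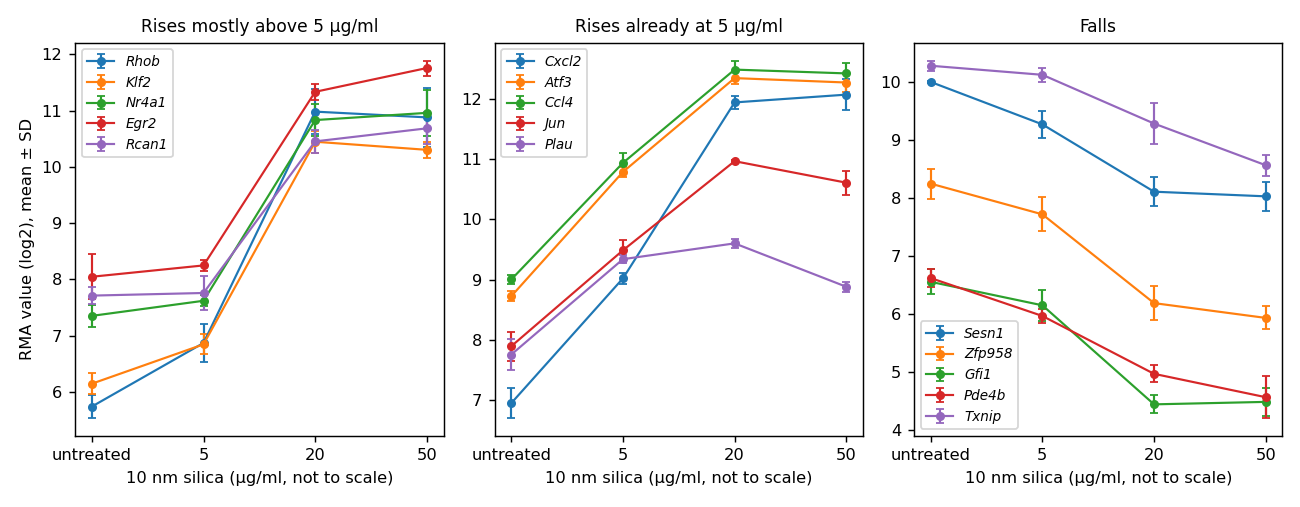
Mean log2 RMA value ± SD (n = 3 arrays) of 15 genes in untreated cells and at 5, 20 and 50 µg/ml of 10 nm silica; the x axis is not to scale and the genes were chosen to show different courses. Nr4a1 and Rcan1 stay near the untreated level at 5 µg/ml, Atf3 and Ccl4 do not, and Plau has its highest mean at 20 µg/ml. Without a replicate block, Plau at 20 µg/ml was not called different from 5 or 50 µg/ml.

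Against the next higher dose, 50 µg/ml, limma called 0 of 22626 probe sets at 20 µg/ml, with 979 (4.33%) at an unadjusted p under 0.05 and a smallest adjusted p of 0.231. The 95% interval of the difference had a median half-width of 0.32 log2 units, and 98.8% of probe sets differed by less than 0.5. Over genes the differences ran from −1.13 to 0.937. For Rhob the difference was 0.10 (95% interval −0.478 to 0.681), for Cxcl2 −0.13 (−0.395 to 0.137) and for Klf2 0.14 (−0.134 to 0.422). Fos averaged 9.5 at 20 µg/ml, against 10.24 at 50 µg/ml (−0.74, adjusted p = 0.565). Deviations of same-numbered arrays correlated here too, at 0.468, 0.455 and 0.793, which does not show that the samples were paired. With the number as a block 6 probe sets were called, all higher at 20 µg/ml: Plau (0.72, adjusted p = 0.013), Txnip (0.72, 0.0172), Hmgcs1 (0.63), Tent5c (0.85), Aacs (0.65) and 1 probe set with no single gene name. The probe set of Hmgcs1 among them is not the one that represents the gene. With array weights 960 probe sets were called, and a count of 0 does not show that the doses act alike.

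Dose over diameter, which is proportional to the surface area of spheres of one density, was equal for 10 nm silica at 20 µg/ml and 500 nm silica at 1000 µg/ml. These groups differed in 629 probe sets, or 2.78%, and in 344 genes, or 2.78%, with 217 higher and 127 lower with the small particle. Among probe sets 71.2% of the differences were higher with the small particle, against 61.2% with arrays centred and 54.4% with arrays centred and rescaled. With array weights, where 4581 probe sets were called, it was 46.6%. The count of probe sets was 379, 336 and 365 without 10 nm replicate 1, 2 or 3, and 371 and 390 without 500 nm replicate 1 or 3.

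Klf2 showed the largest difference in favour of 10 nm silica. It read 10.22, 10.53 and 10.60 with 10 nm and 7.50, 7.50 and 7.65 with 500 nm particles (log2 difference 2.90, adjusted p = 4.35e-10), against 6.22, 6.28 and 5.94 in untreated cells. Rhob read 11.30, 11.12 and 10.53, against 8.91, 8.65 and 8.38 (2.33, adjusted p = 4.97e-05), and Nr4a1 10.89, 11.08 and 10.53, against 8.66, 8.87 and 8.34 (2.21, adjusted p = 5.02e-07). In all 3 the 500 nm arrays lay between the untreated and the 10 nm arrays. Malat1, a nuclear long noncoding RNA, read 11.42, 11.76 and 11.93 with 10 nm and 9.69, 9.24 and 9.94 with 500 nm particles (2.08, adjusted p = 0.00207). Its untreated arrays were scattered at 9.07, 11.27 and 10.05, and its difference of 1.57 from them (adjusted p = 0.00633) was not called without replicate 3 of all groups (0.109). Egr2 (2.00), Ccl2 (1.75), Nr4a2 (1.74), Arc (1.45), Ndrg1 (1.15), Olr1 (1.0) and Klf4 (0.97) were also higher with the small particle.

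Other genes were lower with the small than with the large particle. The linker histone gene H1f2 read 8.53, 8.58 and 8.42 with 10 nm and 10.57, 10.53 and 10.60 with 500 nm particles (log2 difference −2.06, adjusted p = 3.44e-09). Slc7a11, a cystine transporter, read 7.67, 7.65 and 7.55, against 9.33, 9.70 and 9.14 (−1.77, adjusted p = 1.37e-07), and the iron exporter Slc40a1 6.58, 6.39 and 6.76, against 8.37, 8.02 and 8.38 (−1.68, adjusted p = 8.59e-05). The chemokine Cxcl10 read 6.13, 6.01 and 5.94, against 7.62, 7.87 and 7.26 (−1.56, adjusted p = 0.000256). Slc40a1 and Cxcl10 were not called between 10 nm silica at 20 µg/ml and untreated cells, with log2 differences of 0.14 and 0.20, and nor was Slc7a11 (0.35), although it was after quantile normalization (0.45, adjusted p = 0.0162) and with arrays centred (0.40, 0.0492) or also rescaled (0.42, 0.0175). In all 4 genes no array of one particle reached those of the other, which was a condition for naming them.

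**Figure D5:**
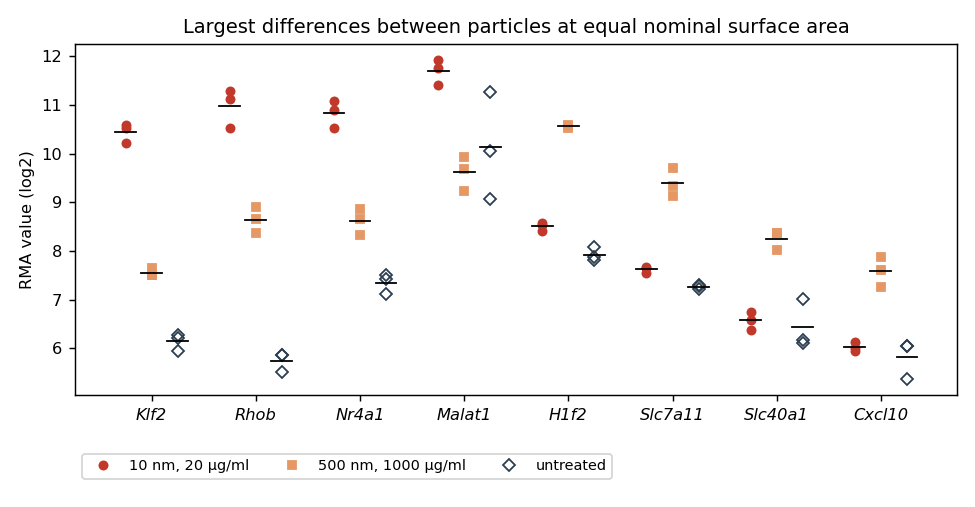
Log2 RMA values on each array for the 4 largest differences in each direction between 10 nm silica at 20 µg/ml (circles) and 500 nm silica at 1000 µg/ml (squares), with untreated cells (diamonds); bars are group means. Klf2, Rhob, Nr4a1 and Malat1 lie higher with 10 nm silica, and H1f2, Slc7a11, Slc40a1 and Cxcl10 higher with 500 nm silica.

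Of the lists, sterol synthesis had the largest share of members that differed between the particles. Of 17 sterol synthesis genes 9 were lower and 0 higher with 10 nm silica (median −0.41, against −0.04 over all genes), where 1.02% of all genes were lower, and 12 were higher with 500 nm silica than in untreated cells, where 4.97% of all genes were. The 2 comparisons share the 500 nm arrays. The squalene synthase gene Fdft1 (−0.86), Mvd (−0.88) and Pmvk (−0.73), of the mevalonate pathway, differed the most. Of 22 NF-kB genes 7 were lower and 1 higher (median −0.44), with Rel at 7.41, 7.49 and 7.33, against 8.93, 8.97 and 8.53 with 500 nm silica (−1.40, adjusted p = 1.77e-05). Of the immediate early factors 8 were higher with 10 nm silica and 1, Maff, was lower (−0.89). Atf3 differed by 0.04 (95% interval −0.194 to 0.266) and Rgs1 by −0.04 (−0.224 to 0.147).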

How the data were processed

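Messenger RNA of 21 samples was hybridised to a 3′ expression array with 22690 probe sets. The values are RMA values on a log10 scale that the authors deposited in one table. The submitters' processing notes name RMA. For its version and settings, nothing is given in the sources used here. The base was read from the values: with base 10 the brightest probe set has 22019 intensity units, with base 2 it would have 20.3. The deposited log10 values were put on the log2 scale by the factor 3.32.

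After 64 control probe sets were left out, 22626 were fitted with limma 3.58.1 in R 4.3.3, with 1 mean for each of 7 groups, which share 1 variance estimate (degrees of freedom: 14 residual, 4.02 prior). Symbols came from the platform annotation: 20380 probe sets had 1 symbol, 691 several and 1555 none, and none was named from several. With 3 arrays a group, their number limits the precision.

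Named genes are the 15 largest rises and falls whose arrays do not overlap between groups, the 4 largest called changes of each list and the 4 largest differences each way in the other comparisons. Further members were named, after their values were seen, to account for the counts. The members and the 25 lists were chosen with earlier results of these data known. Of 622 list genes 556 were measured.

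The replicate numbers were checked for pairing by correlating deviations from group means. All 3 correlations passed 0.1 for 20 µg/ml against untreated cells and against 50 µg/ml (values in the report), but not against 5 µg/ml (0.0831, 0.416 and 0.52) or 500 nm silica (0.0433, 0.584 and 0.76). Only number 1 fell short of 0.1, while numbers 2 and 3 correlated at 0.416 or more in every comparison. The check therefore does not settle which comparisons are paired. In simulated data of the main comparison the same fit recovered 35.8% of log2 changes of 0.5, 83.6% of changes of 1 and 95.5% of changes of 2, with 7 false calls. The simulated noise was independent between arrays, and far fewer probe sets were changed than were called in the real data. These shares therefore do not give the recovery in the real comparison. Alternatives were quantile normalization, centring, rescaling, a dim filter at 40%, 1 probe set per gene, only the 6 arrays compared, array weights, the replicate block, a 2-fold minimum and leaving out arrays.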

Additional observations from a re-analysis of the deposited data

How the results depend on the processing

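For 20 µg/ml against untreated cells, 2089 probe sets became 1938 with quantile normalization, 1882 centred, 1853 rescaled, 2194 without dim probe sets and 1649 without replicate 3 of all groups. They became 1315 with 1 probe set per gene, 809 with only the 6 arrays, 4658 with array weights and 367 with a 2-fold minimum. For 20 against 5 µg/ml, 888 became 582 with 1 probe set per gene, 535 with only the 6 arrays, 4023 with array weights and 141 with a 2-fold minimum. For 20 against 50 µg/ml, 0 became 960 with array weights. For 10 nm at 20 µg/ml against 500 nm silica at 1000 µg/ml, 629 became 353 with 1 probe set per gene, 171 with only the 6 arrays, 4581 with array weights and 95 with a 2-fold minimum. Using 1 probe set per gene tests fewer features and the 2-fold minimum adds a condition, and for the other settings the cause was not tested. Leaving out 1 array gave 1367 to 1939 against untreated cells, 476 to 674 against 5 µg/ml, 0 to 0 against 50 µg/ml and 336 to 487 against 500 nm silica.

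With the replicate number as a block the counts were 3577 against untreated cells, 6 against 50 µg/ml, 1765 against 5 µg/ml and 1334 against 500 nm silica. Whether the numbers pair any of these samples is not known. Among the 97 genes named by rule the block added the call of Rpl14 against untreated cells. None of the 97 changed sign under an alternative while called in the main fit or in that alternative. Sign changes of genes called in neither fit were not counted, and further named members were not followed singly. The share of called probe sets that were higher crossed 50% in 3 comparisons. It was 61.3% at the 2-fold minimum against 31.5% for untreated cells, 73.0% against 34.0% for 5 µg/ml, and 46.6% with array weights against 71.2% for 500 nm silica. With only the 6 arrays, Abca1, Clec4e, Ctsl, Dnajb1, Hsd17b7, Tlr2, Usp18, Cdc6 and Malat1 were among the named genes that lost their call. Without replicate 3 of all groups, Bub1b, Ccne2, Cmpk2, Cnot6, Gbp3, Malat1, Nfe2l2 and Pfkfb3 did. Bub1b, Ccne2, Cmpk2 and Cnot6 lost theirs under quantile normalization, centring and rescaling, Pde7a under quantile normalization (adjusted p = 0.0761), and Cdc6 (0.108) and Lpl (0.185) under rescaling, whereas Slc7a11 gained one under all 3 scalings.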
